A study of Homo sapiens with 12 samples.

Results

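The 9 genes described here, PLEKHF1, SEPTIN5, P2RY6, LIPG, RBPMS2, KBTBD11, FAM43A, PRDM1 and DNALI1, were picked for a lower progestin effect or a lower level in KR cells than in WT cells. They are 9 of 20046 genes, and 16 of 47231 probes, on the Illumina bead arrays of the study. The genes were chosen by their measured R5020 effects and levels in KR and WT cells, with no numerical threshold stated. Because those differences made the choice, they are given below as a description, with no test.

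The cells were T47D-Y, a derivative of T47D breast carcinoma cells without progesterone receptor (PR), and all groups carried a pIRES-neo3 vector. KR cells carried PR-B with the K388R mutation, which cannot receive SUMO at the mutated lysine, WT cells carried wild-type PR-B, and PR-null cells carried the empty vector. Each line was a single-cell clone kept under selection, so a receptor cannot be told apart from its clone. After a day without serum, cells of each line were given R5020, a synthetic progestin, or ethanol (vehicle) for 6 h, with 2 arrays from duplicate experiments in each of 6 groups.

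Progesterone receptor is a hormone-activated transcription factor of the breast and the reproductive tract. On binding a progestin it attaches to DNA at response elements and raises or lowers the transcription of nearby genes. SUMO is a small protein that can be joined to lysines of the receptor, and its attachment is known to restrain the receptor at some promoters.

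Values are log2 signals, so a difference of 1 is a 2-fold change. The standard error of a log2 difference follows the ± sign. Standard errors and p-values rest on the spread between duplicate arrays, pooled over the 6 groups. For each gene this spread was drawn strongly toward that typical of all probes (prior degrees of freedom 37.1, residual 6). Each gene was taken from its brightest probe, and its level was called above background when the signal exceeded 6.09, the 95th percentile of 457 olfactory receptor probes. The median signal was 6.01 on every array, replicate arrays correlated at 0.9945 to 0.9951, and the number of arrays limits the precision. All 8 luminal breast markers, such as KRT8 and ESR1, were above background on every array, while the basal keratins KRT5 and KRT14 were not. Of markers of other cells, VIM and COL1A1 were above background on every array, and CD14, ITGAM and VWF on at least 2. PGR, the gene for PR, gave 9.78 and 9.59 in KR cells with R5020 and 8.86 and 8.96 in KR cells with vehicle. It gave 7.66 and 7.51 in WT cells with R5020, 8.49 and 8.62 in WT cells with vehicle, and 5.38 to 5.46 in PR-null cells. The KR line therefore also had the higher PGR signal, most of all with R5020, and the part of this in the differences below was not tested.

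The 9 genes did not share a single pattern. SEPTIN5, RBPMS2, KBTBD11 and FAM43A had higher signals with R5020 in WT cells and smaller measured differences in KR cells. The KR differences were from 28.7% (SEPTIN5) to 79.1% (KBTBD11) of the WT difference on the log2 scale. For KBTBD11 the effects were similar, KR minus WT being -0.25 ± 0.159. PRDM1 exceeded the background limit in 1 group alone, WT cells given R5020. PLEKHF1 moved in opposite directions in the lines. P2RY6 and LIPG were lower with R5020 in KR cells and differed little in WT cells, so their measured response was larger with the mutant receptor, not smaller. For LIPG, WT cells with vehicle already lay low, at a mean of 6.73. A fall there as large as in KR cells would have passed under the background limit. DNALI1 differed in its level under both treatments and showed little difference between R5020 and vehicle in WT cells. In the difference of R5020 effects, KR minus WT, the 9 genes ranged between -1.57 and -0.25 with a median of -1.32, beside a median of -0.0011 over all genes, and the values of PRDM1 and DNALI1 rest in part on signals not above background. A gene was called where its log2 difference exceeded 0.6 and its adjusted p lay under 0.01, and in that difference 0.389% of all genes were called lower. Nothing is read from this share, since the same contrast chose the genes.

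**Figure D1:**
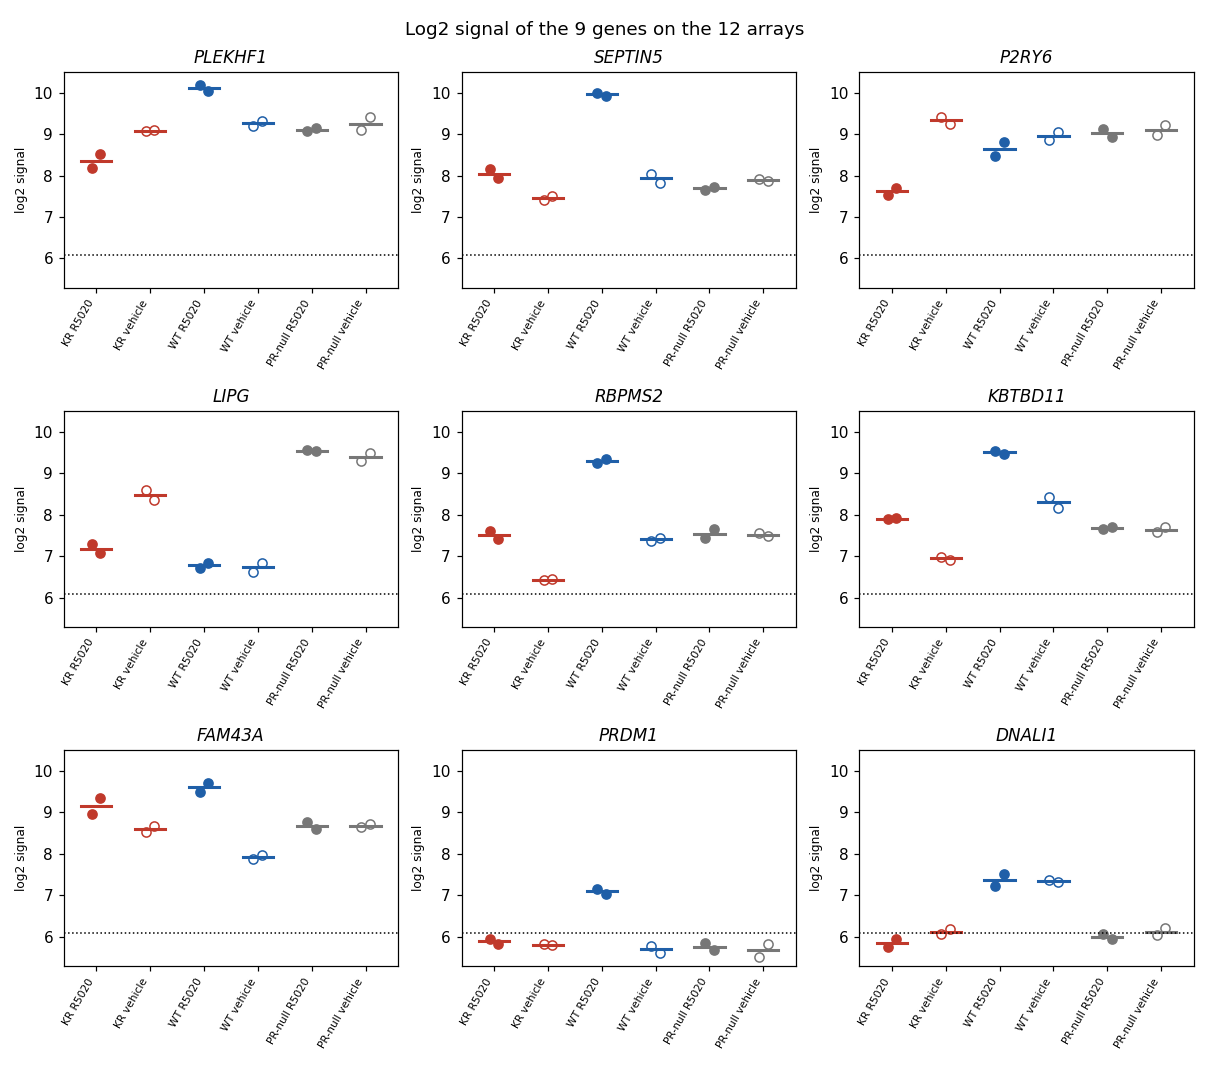
Log2 signal of the brightest probe of each of the 9 genes (vertical axis) on each of the 12 arrays, by group of line and treatment (horizontal axis). Circles are arrays, filled for R5020 and open for vehicle, horizontal bars are means of 2 arrays and the dotted line is the background limit of 6.09. PRDM1 exceeds the limit only in WT cells with R5020, and LIPG is highest in PR-null cells.

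Among the genes that act on other genes' expression was PRDM1, which encodes BLIMP1, a transcriptional repressor best known for driving plasma cell differentiation. PRDM1 gave 5.95 and 5.82 in KR cells with R5020 and 5.83 and 5.79 in KR cells with vehicle. It gave 7.16 and 7.04 in WT cells with R5020, against 5.79 and 5.61 in WT cells with vehicle. In PR-null cells the values were 5.85 and 5.68 with R5020 and 5.52 and 5.84 with vehicle. Only WT cells given R5020 had PRDM1 above background, and the arrays of the other 5 groups lay between 5.52 and 5.95. The measured R5020 effect was 1.40 ± 0.116 in WT cells, and none can be read in KR cells, where neither group was above background. Since the vehicle signal was not above background, the level in WT cells with R5020 was at least 2.01-fold that with vehicle, and at least 2.01-fold that of KR or of PR-null cells with R5020. Such bounds set the bright mean against the background limit, or against the dim probe's own signal where that was higher.

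RBPMS2, an RNA-binding protein known from smooth muscle, was higher with R5020 in both lines, but from different starting levels. KR cells gave 7.62 and 7.42 with R5020 and 6.41 and 6.44 with vehicle, and WT cells gave 9.26 and 9.35 with R5020 and 7.36 and 7.45 with vehicle. PR-null cells lay at 7.44 and 7.64 with R5020 and at 7.55 and 7.49 with vehicle. KR cells with R5020 thus overlapped PR-null cells and WT cells without hormone, and KR cells with vehicle were the lowest of the 6 groups. The hormone effect was 1.09 ± 0.112 in KR cells and 1.90 ± 0.112 in WT cells. The gap between KR and WT cells was -0.98 ± 0.112 with vehicle and -1.79 ± 0.112 with R5020, so that 54.7% of the log2 gap was present without hormone.

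Promoter sequence was available from RefSeq (GRCh38.p14) for 6 of the 9 genes, as 9 windows of 250 bases before to 50 after a start. These were searched on both strands for the letters of a progestin response element, because R5020-bound receptor is known to bind such elements. The half-site TGTTCT was found in 14.8% of all 35116 windows and the core ACANNNTGT, which can share its last letters with a half-site, in 5.37%. Among the 9 windows, the half-site and the core each occurred in 1, the same window of RBPMS2, and they did not overlap there. That window, chr15:64761168-64761467 on the minus strand, is shown because it was the sole match among these genes, with the core (bases 31 to 39 from its 5′ end) and the half-site (bases 128 to 133) in capitals.
RBPMS2: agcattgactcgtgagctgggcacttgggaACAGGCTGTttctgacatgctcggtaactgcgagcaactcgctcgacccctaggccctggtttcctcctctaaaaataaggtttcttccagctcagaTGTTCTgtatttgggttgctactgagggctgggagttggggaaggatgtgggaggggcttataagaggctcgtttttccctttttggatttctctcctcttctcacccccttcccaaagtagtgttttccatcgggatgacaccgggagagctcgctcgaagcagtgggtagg
A match of letters describes the window only, and which of the 3 RBPMS2 starts these cells use was not measured. The windows of PLEKHF1, LIPG, FAM43A, PRDM1 and DNALI1 did not hold these letters, which says nothing about receptor binding elsewhere.

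The cytoskeletal and membrane-traffic genes were SEPTIN5, DNALI1 and PLEKHF1. SEPTIN5 encodes a filament-forming septin known to act in exocytosis at nerve terminals. KR cells gave 8.15 and 7.93 with R5020 and 7.40 and 7.51 with vehicle, whereas WT cells gave 10.001 and 9.93 with R5020 and 8.04 and 7.82 with vehicle. PR-null cells gave 7.66 and 7.73 with R5020 and 7.91 and 7.87 with vehicle. WT cells with R5020 stood clear of every other array, and KR cells with R5020 overlapped WT cells with vehicle. It differed between R5020 and vehicle by 0.58 ± 0.113 (1.5-fold) in KR cells and 2.03 ± 0.113 (4.10-fold) in WT cells. With R5020, the KR minus WT difference of -1.92 was the lowest of all 20046 genes, beside -0.47 with vehicle. The choice of genes favoured such a rank.

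DNALI1, a light intermediate chain of axonemal dynein, the motor of cilia, was a difference of level. KR cells gave 5.74 and 5.94 with R5020 and 6.06 and 6.18 with vehicle, and WT cells gave 7.24 and 7.51 with R5020 and 7.36 and 7.32 with vehicle. PR-null cells gave 6.06 and 5.94 with R5020 and 6.03 and 6.20 with vehicle. Every WT array lay above every KR and PR-null array, and KR and PR-null cells lay near the background limit together. The R5020 effect was 0.03 ± 0.115 in WT cells, and KR cells with R5020 gave only a bound. The KR minus WT gap was -1.22 ± 0.115 with vehicle, where 1 of the 2 KR arrays was above background. With R5020, the level in WT cells was at least 2.43-fold that of KR cells and at least 2.43-fold that of PR-null cells, where the gene was not above background.

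PLEKHF1, an endosomal and lysosomal protein with PH and FYVE lipid-binding domains, turned its direction. KR cells gave 8.19 and 8.53 with R5020 and 9.08 and 9.09 with vehicle, and WT cells gave 10.18 and 10.03 with R5020 and 9.20 and 9.31 with vehicle. PR-null cells gave 9.06 and 9.15 with R5020 and 9.10 and 9.40 with vehicle. With vehicle the means of the 3 lines lay within 0.18 log2 units of one another, and with R5020 the KR and WT arrays lay on either side of the PR-null arrays. PLEKHF1 had an R5020 effect of -0.72 ± 0.119 (1.65-fold lower) in KR cells and 0.85 ± 0.119 (1.80-fold higher) in WT cells. Their difference, -1.57 ± 0.168, was the largest among the 9 genes. It took rank 2 from the lowest of all genes, in a contrast that chose them.

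Among the genes at the cell surface or secreted was P2RY6, a G protein-coupled receptor for the nucleotide UDP. KR cells gave 7.53 and 7.71 with R5020 and 9.42 and 9.24 with vehicle, and WT cells gave 8.48 and 8.82 with R5020 and 8.85 and 9.04 with vehicle. PR-null cells gave 9.11 and 8.93 with R5020 and 8.98 and 9.23 with vehicle. The lowest arrays were the KR arrays with R5020, and the highest the KR arrays with vehicle. Its R5020 effect was -1.71 ± 0.122 (3.26-fold lower) in KR cells and -0.30 ± 0.122 in WT cells. Without hormone KR cells were above WT cells by 0.38 ± 0.122, and with R5020 the difference was -1.03 ± 0.122.

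LIPG, which encodes endothelial lipase, a secreted phospholipase of high-density lipoprotein, was highest without any receptor. KR cells gave 7.29 and 7.07 with R5020 and 8.59 and 8.36 with vehicle, and WT cells gave 6.73 and 6.83 with R5020 and 6.62 and 6.84 with vehicle. PR-null cells gave 9.55 and 9.54 with R5020 and 9.29 and 9.49 with vehicle. All 4 KR arrays lay between the WT and the PR-null arrays, and those with vehicle were the nearer to PR-null cells. LIPG had an R5020 effect of -1.30 ± 0.117 in KR cells and 0.05 ± 0.117 in WT cells. From the WT signals with vehicle, a fall of the KR size would have passed under the background limit of 6.09. The KR minus WT difference was 0.40 ± 0.117 with R5020 and 1.74 ± 0.117 with vehicle, so LIPG was higher in KR cells under both treatments and entered the list through its effect.

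KBTBD11, a protein with kelch repeats and a BTB domain, responded by similar amounts from different levels. KR cells gave 7.89 and 7.93 with R5020 and 6.98 and 6.91 with vehicle, and WT cells gave 9.54 and 9.47 with R5020 and 8.44 and 8.15 with vehicle. PR-null cells gave 7.66 and 7.70 with R5020 and 7.57 and 7.71 with vehicle. WT cells were above and KR cells with vehicle below the PR-null arrays. Its hormone effect was 0.96 ± 0.112 in KR cells and 1.21 ± 0.112 in WT cells, a difference of -0.25 ± 0.159. The KR minus WT gap was -1.60 with R5020 and -1.35 with vehicle, 84.2% of it being present without hormone.

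FAM43A, whose function is little described, had the opposite order without hormone. KR cells gave 8.97 and 9.34 with R5020 and 8.52 and 8.67 with vehicle, and WT cells gave 9.50 and 9.72 with R5020 and 7.88 and 7.98 with vehicle. PR-null cells gave 8.77 and 8.59 with R5020 and 8.65 and 8.71 with vehicle. WT cells thus held both the highest and the lowest FAM43A arrays, and KR cells with vehicle were close to PR-null cells. FAM43A had an R5020 effect of 0.56 ± 0.119 in KR cells and 1.68 ± 0.119 in WT cells. The KR minus WT difference was -0.45 ± 0.119 with R5020 and 0.67 ± 0.119 with vehicle.

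**Figure D2:**
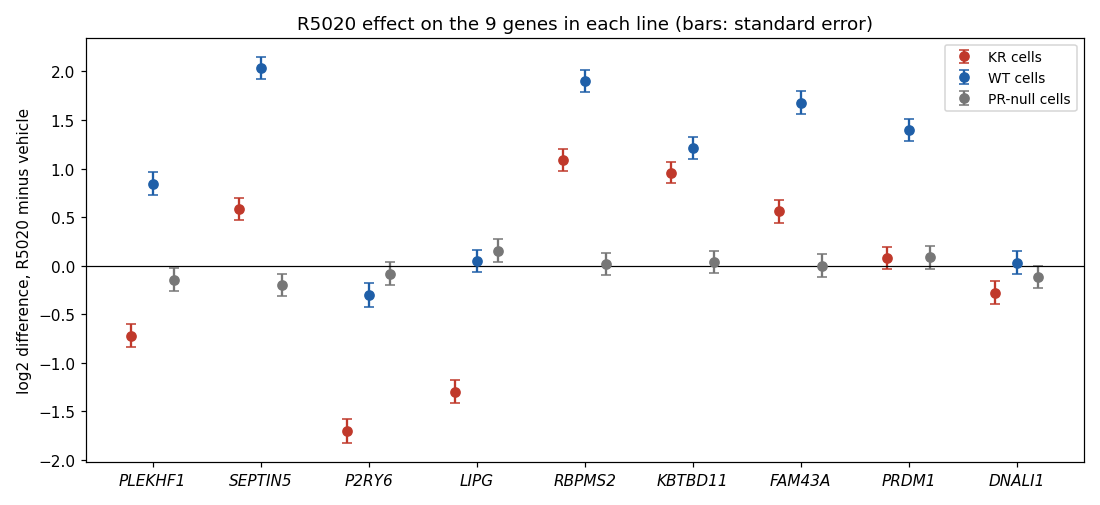
Log2 difference between R5020 and vehicle (vertical axis) for each of the 9 genes (horizontal axis) in KR, WT and PR-null cells, with bars for the standard error of the fit. The KR value lies below the WT value for all 9 genes, as the choice of genes fixed, the KR values of PRDM1 and DNALI1 rest on signals not above background, and the PR-null values lie between -0.20 and 0.15.

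**Figure D3:**
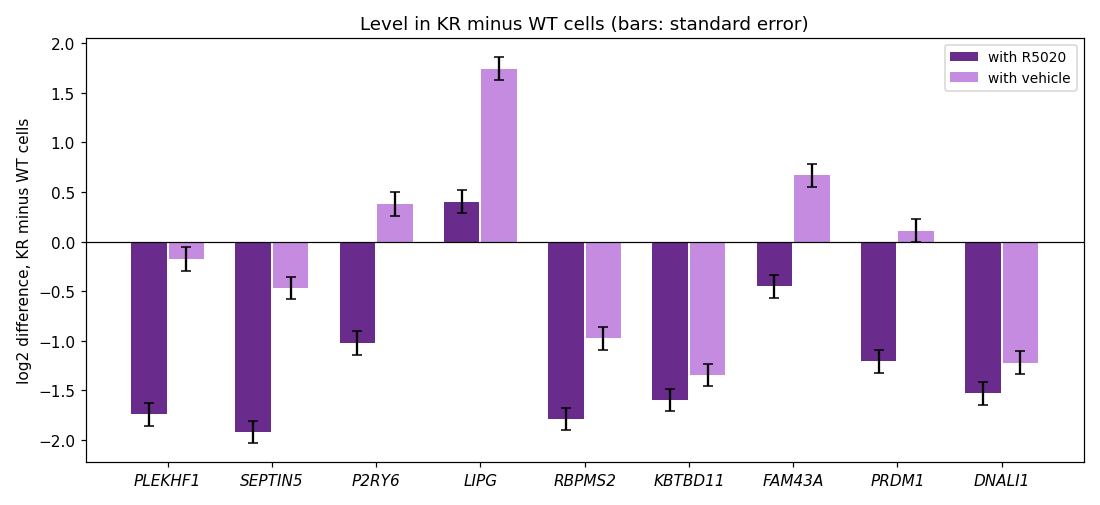
Log2 difference between KR and WT cells (vertical axis) for each gene (horizontal axis), with R5020 in dark and vehicle in light bars, and standard errors of the fit. PLEKHF1, SEPTIN5, RBPMS2, KBTBD11 and DNALI1 lay below 0 under both treatments, LIPG lay above 0 under both, and FAM43A and P2RY6 had opposite signs. The PRDM1 vehicle bar compares groups that were both under the background limit, and the R5020 bars of PRDM1 and DNALI1 set WT cells against KR cells not above it.

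The vehicle and R5020 gaps place the genes in order. With R5020, SEPTIN5, RBPMS2, PLEKHF1 and KBTBD11 held ranks 1 to 4 from the lowest of all 20046 genes in the KR minus WT difference. With vehicle, KBTBD11, DNALI1 and RBPMS2 held ranks 2, 4 and 15, while SEPTIN5 and PLEKHF1 held ranks 212 and 2570. LIPG with vehicle took rank 20043, near the highest of all genes. The genes were chosen by these differences or by the effects they enter, so nothing is read from the ranks.

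The PR-null arrays took no part in the choice of genes, and the R5020 effect in them was tested with limma over all 47231 probes with Benjamini-Hochberg adjustment. In PR-null cells, R5020 changed 0 of the 9 genes (smallest adjusted p = 0.978 by limma), 0 at an unadjusted p under 0.05, beside 0% of all genes called and 4.67% at an unadjusted p under 0.05. The 9 PR-null differences lay between -0.20 (SEPTIN5) and 0.15 (LIPG).

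The average of KR and WT cells was set beside these values as a description. It is made from the arrays that chose the genes, and a gene picked for a wide gap between the lines has to respond, or to stand apart from PR-null cells, in at least 1 of them, so nothing is read from the counts that follow and no p is given. Averaged over KR and WT cells, the R5020 effect passed the call thresholds for 7 of the 9 genes, 5 higher and 2 lower, beside 4.3% of all genes (2.85% higher, 1.45% lower). It was 1.495 ± 0.079 for RBPMS2, 1.31 ± 0.0796 for SEPTIN5, 1.12 ± 0.0843 for FAM43A, 1.08 ± 0.0793 for KBTBD11 and 0.74 ± 0.0821 for PRDM1, and it was -1.003 ± 0.0861 for P2RY6 and -0.63 ± 0.0828 for LIPG. PLEKHF1 (0.06) and DNALI1 (-0.12) lay near 0, and for PLEKHF1 the average hides opposite signs. LIPG averages a KR effect of -1.30 with a WT effect of 0.05, and its average lay at -0.57 without KR R5020 replicate 2, KR vehicle replicate 1 or WT vehicle replicate 2 and at -0.60 without WT R5020 replicate 1, short of the size for a call each time. After subtraction of the effect in PR-null cells, again 7 of the 9 genes passed, beside 4.64% of all genes (2.91% higher, 1.74% lower).

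Without hormone, the average of KR and WT cells stood apart from PR-null cells by the call thresholds for 3 of the 9 genes, beside 2.46% of all genes (0.993% higher, 1.47% lower). The differences were -1.79 ± 0.101 (3.46-fold lower) for LIPG, -0.61 ± 0.0967 for RBPMS2 and 0.61 ± 0.0998 for DNALI1, and FAM43A at -0.42 missed the size needed. RBPMS2 and DNALI1 fell short of 0.6 without PR-null vehicle replicate 1 (RBPMS2 -0.57, DNALI1 0.53), RBPMS2 without KR vehicle replicate 1 (-0.60) or WT vehicle replicate 1 (-0.58), and DNALI1 without KR vehicle replicate 2 (0.58). The lines did not contribute alike: against PR-null cells with vehicle, RBPMS2 differed by -1.09 in KR and by -0.12 in WT cells, and DNALI1 by 0.000996 in KR and by 1.22 in WT cells.

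With R5020, the average of KR and WT cells stood apart from PR-null cells for 8 of the 9 genes, beside 6.6% of all genes (3.47% higher, 3.14% lower). The differences were 1.31 for SEPTIN5, 1.03 for KBTBD11, 0.87 for RBPMS2, 0.73 for PRDM1, 0.70 for FAM43A and 0.61 for DNALI1, and -2.57 ± 0.101 (5.93-fold lower) for LIPG and -0.89 for P2RY6. PLEKHF1 lay at 0.13, which hides 1.00 in WT and -0.75 in KR cells. Here too the lines did not contribute alike. Against PR-null cells with R5020, WT cells differed by 2.27 for SEPTIN5, 1.83 for KBTBD11, 1.76 for RBPMS2 and 0.93 for FAM43A. KR cells differed by 0.35, 0.23, -0.02 and 0.48 in that order. PRDM1 and DNALI1 were not above background in KR cells with R5020. P2RY6 differed by -1.40 in KR and -0.38 in WT cells, and LIPG by -2.37 and -2.77. DNALI1 fell short of 0.6 without KR R5020 replicate 2 (0.56), WT R5020 replicate 2 (0.54) or PR-null R5020 replicate 2 (0.54). The comparisons with PR-null cells share its arrays with one another.

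The other probes of the genes were read too. PLEKHF1, RBPMS2, KBTBD11, FAM43A and DNALI1 had 1 probe each, and the other 4 genes had 7 further probes, of which 3 were above background on at least 2 arrays. A further LIPG probe (ILMN_1689037) had group means of 6.97 with R5020 and 7.85 with vehicle in KR cells, 6.69 and 6.49 in WT cells, and 8.68 and 8.77 in PR-null cells, which is the order of the brightest probe. Its difference of R5020 effects was -1.08 ± 0.163. The further P2RY6 probe (ILMN_1790029), close to background, gave effects of -0.28 ± 0.118 in KR cells and -0.44 ± 0.118 in WT cells and so did not show the gap. The 2 further SEPTIN5 probes and the 3 further PRDM1 probes had group means of 5.32 to 6.07, below background. Their differences of R5020 effects lay between -0.18 and 0.25. The PRDM1 probe ILMN_2298159 exceeded the limit on 1 array of WT cells and 1 of PR-null cells, both with R5020. In WT cells the 3 further PRDM1 probes gave R5020 effects of 0.02 to 0.10, so they did not show the rise of the brightest probe. With the probes of a gene averaged, the averaged R5020 effect of PRDM1 (0.38) and of LIPG (-0.48) no longer reached the size needed for a call.

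**Figure D4:**
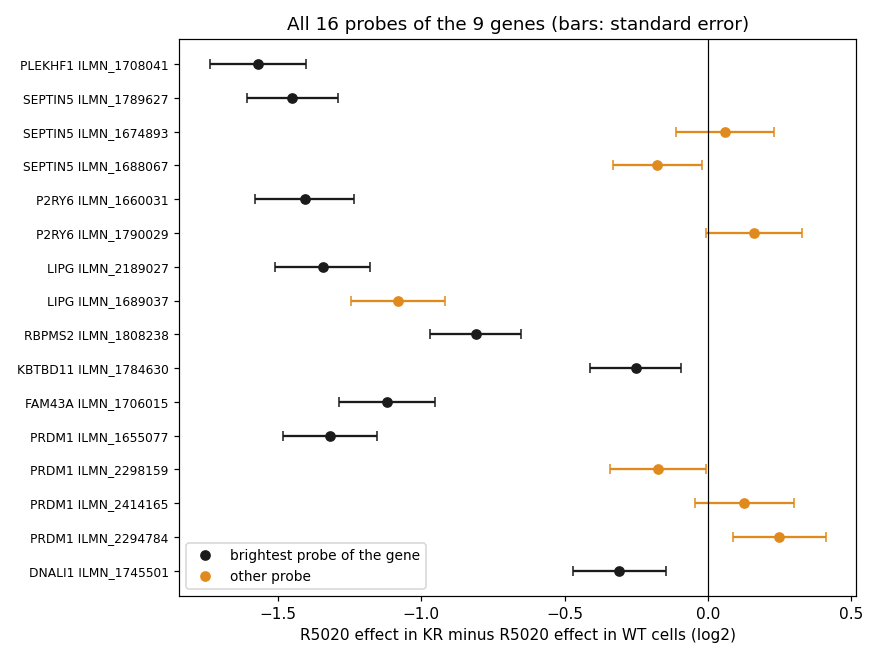
Difference of the R5020 effects, KR minus WT (horizontal axis, log2), for all 16 probes of the 9 genes (vertical axis), with bars for the standard error. The further LIPG probe lies at -1.08 beside the brightest at -1.34, and the other 6 further probes lie between -0.18 and 0.25.

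Related genes were read from lists of the same families or of similar function, called family genes here. The lists were P2Y receptors, septins, lipases, RBPMS, KBTBD proteins, FAM43B, PRDM proteins, endosomal proteins with PH or FYVE domains and axonemal dynein genes. The lipases were not all of the family of LIPG. Of 84 listed genes, 81 were measured and 50 were above background on at least 2 arrays. By limma, R5020 changed 3 of the 81 in KR cells (3.7%, against 4.08% of all genes) and 6 in WT cells (7.41%, against 5.29%). Without KR vehicle replicate 1, the count in KR cells was 5. The difference between the lines was called for 0 of the 81 (1.01% of all genes), and 15 had an unadjusted p under 0.05 (11.1% of all genes). The smallest adjusted p-values were those of SEPTIN6 (0.62 ± 0.158, adjusted p = 0.0365), DNAAF1 (-0.59 ± 0.152, adjusted p = 0.0382) and RBPMS (-0.59 ± 0.159, adjusted p = 0.0555), SEPTIN6 having the higher effect in KR cells.

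P2RY2, a receptor for ATP and UTP, fell in both lines. P2RY2 gave 7.70 and 7.46 in KR cells with R5020 and 8.83 and 8.63 in KR cells with vehicle, and 7.26 and 7.42 in WT cells with R5020 and 8.78 and 8.72 in WT cells with vehicle. Its effect was -1.15 (adjusted p = 2.44e-10) in KR cells and -1.41 (adjusted p = 5.27e-13) in WT cells by limma, and the difference was 0.26 (adjusted p = 0.709). SEPTIN4, a septin linked to apoptosis, rose by 1.05 in KR cells (adjusted p = 4.5e-10) and by 1.55 in WT cells (adjusted p = 3.3e-15) by limma, with a difference of -0.50 (adjusted p = 0.139). MECOM, a PRDM-family transcription factor, fell by 1.18 with R5020 in KR cells (adjusted p = 3.76e-11) and by 1.53 in WT cells (adjusted p = 1.1e-14) by limma. Its signals with R5020 were close to background, at 6.26 and 6.39 in KR cells and 6.18 and 6.15 in WT cells. In KR cells PRDM11 gave -0.55, and in WT cells it was lower with R5020 (-1.05, adjusted p = 1.04e-09 by limma). SEPTIN14, close to background, gave 0.59 in KR cells and rose by 0.91 in WT cells (adjusted p = 3.09e-08). DNAAF1, needed for assembly of ciliary dynein and also close to background, gave 0.10 in KR cells and rose by 0.69 in WT cells (adjusted p = 4.47e-06). The average of KR and WT cells was also set against PR-null cells. With R5020, 7 of the 81 family genes were called (8.64%, against 6.6% of all genes). LIPA, P2RY2, SEPTIN9 and MECOM were lower, and P2RY11, SEPTIN4 and SEPTIN14 were higher. With vehicle 1 was called, LIPA, the lysosomal acid lipase (1.23%, against 2.46% of all genes). By limma, LIPA differed by -1.69 with R5020 (adjusted p = 6.91e-19) and by -1.25 with vehicle (adjusted p = 5.27e-14).

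**Figure D5:**
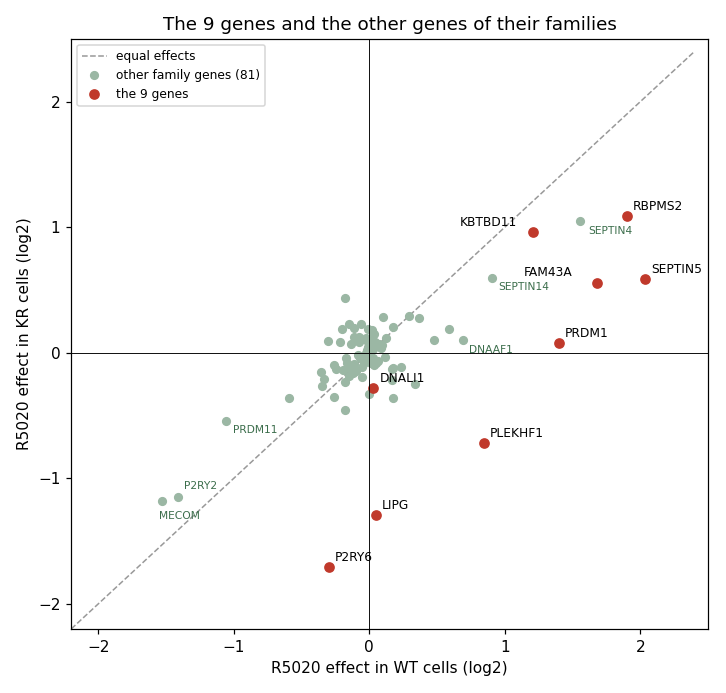
R5020 effect in KR cells (vertical axis, log2) against that in WT cells (horizontal axis, log2) for the 9 genes in red and the 81 genes of the family lists in green, with the line of equal effects dashed. The 9 genes lie below the line, as the choice fixed, and family genes called for either of these effects are labelled.

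Across the 12 arrays, which share lines and treatments, the members' brightest probes were compared with Pearson's r as a description. PRDM1 and SEPTIN5 (0.95), RBPMS2 and SEPTIN5 (0.95), KBTBD11 and RBPMS2 (0.94) and KBTBD11 and SEPTIN5 (0.93) were most alike, and DNALI1 and LIPG were most opposed (-0.68). The genes were chosen from these same arrays by differences between KR and WT cells, which favours likeness among them. Nothing is therefore read from the r values between members. Among 13143 other genes above background on at least 2 arrays, those most like SEPTIN5 were DNASE1L3 (0.98), SQSTM1 (0.98) and UNC5B (0.98), and those most like PRDM1 were ZIC2 (0.98), ZC3H12A (0.97) and PPL (0.97). All r values of PRDM1, those with members included, rest largely on 2 of the 12 arrays, its hormone-treated WT pair. Its signal on the remaining arrays did not exceed the background limit. LIPG was most like ELL2, CD47 and L1CAM (each 0.97), RBPMS2 most like KANK1 (0.98), RCL1 (0.97) and GAS6 (0.97), and KBTBD11 most like CDC7 (0.98), UNC93B1 (0.97) and E2F4 (0.96). FAM43A was most like KLF4 (0.96), KLHL5 (0.96) and LMO7 (0.94), P2RY6 most like ALDH3A2 (0.95), CYP1B1 (0.94) and SH3BP1 (0.94), PLEKHF1 most like RASL11B (0.94), EPN2 (0.93) and MTHFD2 (0.92), and DNALI1 most like JMJD7-PLA2G4B (0.96), FANCI (0.96) and SIRPA (0.96).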

How the data were processed

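The deposited log2 intensities come from Illumina HT-12v4 bead arrays, whose signals the authors transformed to log2 and quantile normalized with lumi, a package named in the submitters' processing notes without its version. Depth does not apply to arrays. A further table with 12 intensity and 12 detection p-value columns uses codes that no label explains, and it was not used. The members and lists were chosen with earlier results of these data known. Members were the listed symbols in the platform annotation, each read from its brightest probe, and the genes most like each were the 3 with the highest r. Family genes were named where called. With limma 3.58.1 (R 4.3.3), a linear model of group means was applied to all probes (prior degrees of freedom 37.1, residual 6), and p-values were adjusted over all probes. Averages of KR and WT cells had been planned as tests and are given as descriptions, since the same arrays chose the genes. Thresholds follow the study's methods. The fit was checked on simulated data. The alternatives were only probes above background, a mean-variance trend, normexp, a floor at the background limit, an average over probes, a log2 difference over 1, a replicate block and each array left out.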

Additional observations from a re-analysis of the deposited data

Results flagged for a closer look

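For 7 of the 9 genes the R5020 effect averaged over KR and WT cells stood apart from that in PR-null cells by the thresholds used for calls, beside 4.64% of all genes. The difference of effects was 1.505 for SEPTIN5, 1.48 for RBPMS2, 1.12 for FAM43A, 1.05 for KBTBD11, 0.65 for PRDM1, -0.92 for P2RY6 and -0.78 for LIPG. These averages contain the effects by which the genes were chosen, so nothing is read from the count and no p is given. PRDM1 fell short of 0.6 without PR-null R5020 replicate 2 (0.57) or PR-null vehicle replicate 2 (0.50).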

How the results depend on the processing

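No direction of a summary or of a called gene turned under any alternative run. The count of genes whose averaged effect differed from PR-null cells was 7, and it was 3 with signals floored at the background limit and 4 at a log2 difference over 1. With the floor, P2RY6 (-0.92), LIPG (-0.78) and FAM43A (1.12) lost their calls with unaltered differences, so through the adjusted p alone. PRDM1 lost its call with a smaller difference (0.50). Why the floor altered the adjusted p was not tested. The count for vehicle was 3, and it was 1 with the floor, 1 after normexp, 1 at a log2 difference over 1 and 1 to 3 with an array left out. With R5020 the count of 8 became 3 at a log2 difference over 1. The averaged R5020 effect lost LIPG after normexp (-0.59) and, with probes averaged, LIPG (-0.48) and PRDM1 (0.38), and PRDM1 with the floor (0.50). The median effect of the 9 genes in WT cells was 1.21, against 1.01 with the floor, 0.85 with probes averaged and 1.07 to 1.35 with an array left out. The median difference of effects was -1.32, against -1.12 with the floor, -1.14 after normexp and -0.81 with probes averaged. The median KR minus WT difference with R5020 was -1.53, against -1.28 with the floor, -1.34 after normexp and -1.62 to -1.40 with an array left out. Family genes called in KR cells numbered 3, and 3 to 5 with an array left out, 5 without KR vehicle replicate 1. Where an array is left out, the lone array of its group is assumed to vary as the others. Same-numbered arrays deviated together at r of -0.0468 to 0.0814 over 12587 probes in 15 pairs of groups, so the numbers did not pair them, and with a replicate block the counts stayed at 7, 0, 7, 3 and 8 of the 9 genes.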
